A study of Mus musculus with 22 samples.

Results

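The genes described here carry, take up or store fatty acids: the fatty acid-binding proteins Fabp1, Fabp2, Fabp3, Fabp4, Fabp5 and Fabp7, the fatty acid translocase Cd36, the lipoprotein lipase Lpl and the lipid droplet coat protein Plin2. They are 9 of the 31053 genes in the deposited count tables. They were listed by name with their levels by library kind, by Nalcn genotype and by marker-gated class in view, so those levels are given as a description with no test.

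Droplet-based single-cell RNA profiles were made from mice without tumors, nearly all aged, to compare cells that circulate in blood with cells of solid organs. All mice carried Prom1-CreERT2, a tamoxifen-inducible recombinase driven by the Prom1 promoter, and Rosa26ZSG, a reporter that turns on the green protein ZSG in Prom1-lineage cells. Nalcn, which encodes a sodium leak channel, was labelled wt (wild type), het (heterozygous) or null, and the gene was recombined only in the Prom1 lineage. Sorted ZSG+ blood cells of these nontumor-bearing mice (ntCZC) came from 2 wt, 4 het and 4 null libraries (6 male, 4 female, aged 551 to 649 days). Pooled, hashtagged organs (tissue: kidney, liver, lung, stomach, and epididymis in males or uterus in females) came from 5 wt, 2 het and 2 null libraries (6 male, 3 female, aged 551 to 654 days). A single wt library of peripheral blood mononuclear cells (PBMC) came from a male aged 120 days. Another 2 tissue libraries carried conflicting genotype labels and entered no group. The labels do not say that every library came from a different mouse, so n counts libraries, and p-values measure the spread between libraries.

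Fatty acid-binding proteins are small cytosolic carriers that shuttle long-chain fatty acids between membranes, organelles and nuclear receptors, and each is known for a preferred tissue. Fabp1 is the liver form, Fabp2 the intestinal form, Fabp3 the heart and muscle form, Fabp4 the adipocyte, macrophage and capillary form, Fabp5 the epidermal and macrophage form, and Fabp7 the brain form. Upstream of them, Lpl releases fatty acids from circulating lipoproteins at the capillary wall, Cd36 helps move them across the plasma membrane, and Plin2 coats the droplets in which cells store the surplus.

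In the mouse GRCm38 (mm10) assembly with GENCODE vM21 annotation, Fabp4 (chr3:10204088-10208576, minus strand) and Fabp5 (chr3:10012548-10016607, plus strand) lie on chromosome 3 within a stretch that also holds the family genes Pmp2, Fabp9 and Fabp12. Of these 5 genes only Fabp4 and Fabp5 were abundant: in gated tissue barcodes Pmp2 held 0 UMIs, Fabp9 33 and Fabp12 50, against 70144 for Fabp4 and 267049 for Fabp5. The other members lie elsewhere, Fabp1 at chr6:71199827-71205023 (plus), Fabp2 at chr3:122895072-122899506 (plus), Fabp3 at chr4:130308595-130315463 (plus), Fabp7 at chr10:57784881-57788450 (plus), Cd36 at chr5:17781690-17888801 (minus), Lpl at chr8:68880491-68907448 (plus) and Plin2 at chr4:86648386-86670060 (minus).

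RefSeq promoters on GRCm38.p6 were at hand for 6 of the 9 members, and 4 are shown because their genes share classes below, Fabp1 and Fabp2 the hepatocyte-like class as their highest, and Cd36 and Plin2 a high level in lipid-associated macrophage-like barcodes. Each line gives the 250 bases before the RefSeq start, 5′ to 3′ on the strand of the gene, at chr6:71199629-71199878 (plus), chr3:122894822-122895071 (plus), chr5:17835897-17836146 (minus) and chr4:86670060-86670309 (minus). The RefSeq starts of Fabp1, Cd36 and Plin2 differ from those of GENCODE. Capitals mark matches, on either strand, to the core promoter box TATAAA, to the nuclear receptor core site AGGTCA and to the promoter element CCAAT.
Fabp1: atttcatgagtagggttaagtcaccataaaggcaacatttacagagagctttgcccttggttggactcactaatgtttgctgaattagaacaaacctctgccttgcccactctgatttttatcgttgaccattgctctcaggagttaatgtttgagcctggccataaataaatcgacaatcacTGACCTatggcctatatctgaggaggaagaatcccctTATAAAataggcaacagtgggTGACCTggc
Fabp2: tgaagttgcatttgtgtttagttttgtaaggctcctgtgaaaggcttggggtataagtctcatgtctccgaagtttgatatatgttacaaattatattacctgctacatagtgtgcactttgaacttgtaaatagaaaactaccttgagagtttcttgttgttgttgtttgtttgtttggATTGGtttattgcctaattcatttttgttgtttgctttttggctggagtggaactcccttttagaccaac
Cd36: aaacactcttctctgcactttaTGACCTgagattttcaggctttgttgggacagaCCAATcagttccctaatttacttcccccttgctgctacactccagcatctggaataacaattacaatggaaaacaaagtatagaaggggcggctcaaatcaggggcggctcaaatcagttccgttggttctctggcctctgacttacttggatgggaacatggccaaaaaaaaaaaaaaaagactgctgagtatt
Plin2: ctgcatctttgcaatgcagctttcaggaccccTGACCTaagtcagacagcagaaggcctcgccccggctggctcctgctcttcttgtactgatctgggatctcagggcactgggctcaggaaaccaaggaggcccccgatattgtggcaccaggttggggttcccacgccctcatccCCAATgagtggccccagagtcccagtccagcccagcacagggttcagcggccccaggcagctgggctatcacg
Fabp1 held TATAAA at 30 to 25 bases before the start and AGGTCA on the minus strand at 67 to 62 and 9 to 4 bases. Cd36 and Plin2 each held AGGTCA on the minus strand (228 to 223 and 218 to 213 bases) and CCAAT on the plus strand (195 to 191 and 73 to 69 bases), and Fabp2 held CCAAT on the minus strand at 70 to 66 bases. Of 32851 mouse promoters of the same length, 12.4% held TATAAA, 14% held AGGTCA and 33.8% held CCAAT. The core site repeated directly with 1 base between (DR1) was in 0.0335% of them and in 0 of the 6 members.

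The 10 ntCZC libraries held 2501 barcodes and 161541 to 2600526 UMIs each, the 9 tissue libraries 143502 barcodes and 8571019 to 139793927 UMIs, and the PBMC library 752 barcodes and 1422144 UMIs. Barcodes entered a class, named with "-like", when they carried enough of its fixed marker genes, none of which is a member (1927 ntCZC, 43705 tissue and 589 PBMC barcodes). Some parenchymal cells were thinly represented: tissue held 70 hepatocyte-like, 3 gastric gland-like and 0 adipocyte-like barcodes, against 11694 endothelial-like and 10200 myeloid-like. Others were not, with 2304 proximal tubule-like and 2166 epididymal epithelium-like barcodes. Of the 1927 gated ntCZC barcodes, nearly all were leukocyte-like, with 1385 myeloid-like, 266 B cell-like, 151 T and NK cell-like, 111 neutrophil-like and 1 endothelial-like barcodes. The library labelled ntCZC wt replicate 3 stood apart, with 77 barcodes at a median of 325 UMIs. All other libraries matched their labelled sex, but tissue null replicate 3, labelled female, held 1347 CPM of Xist and also 31.2 CPM of Y-linked transcripts. Nalcn itself was too rare to check the genotype labels, with 0 UMIs in all ntCZC and PBMC libraries and 0 to 0.204 CPM in wt, 0.104 to 0.158 CPM in het and 0.272 to 0.386 CPM in null tissue libraries. Any 2 libraries shared at most 2.6% of the barcodes of the smaller one.

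Fabp1, the liver form, was highest in hepatocyte-like barcodes, at 14566 counts per 1000000 UMIs (CPM) over all 70 of them, and a UMI was seen in 81.4% (70.3 to 89.7%) of them (exact 95% binomial interval, here and below, covering counting error only). Those barcodes were spread thinly, and the level was 21415 CPM in 25 barcodes of tissue het replicate 1, 12132 CPM in 19 barcodes of het replicate 2 and 7307 CPM in 12 barcodes of wt replicate 3. Alveolar macrophage-like barcodes, resident macrophages that clear surfactant lipid, held a lowest, median and highest library level of 559, 901 and 1186 CPM, a mean of 889.7 ± 226 CPM (SD, n = 8 libraries). There were 2757 of these barcodes, and they held 55.8% of the Fabp1 UMIs in gated tissue barcodes, against 14.1% for the hepatocyte-like ones. Over all tissue barcodes, gated or not, these shares were 28.9% and 7.29%. B cell-like barcodes, which should lack Fabp1, gave the background: 4.79% (4.24 to 5.39%) had a UMI at a median depth of 1538 UMIs, against 77.8% (76.2 to 79.4%) of alveolar macrophage-like barcodes at 4735 UMIs. Thinned to 1000 UMIs per barcode the shares were 2.75% and 45.0%.

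Fabp2, the intestinal form, had 989 UMIs in the 9 tissue libraries. It was highest in the same hepatocyte-like barcodes, at 493 CPM over all of them, with a UMI in 50% (37.8 to 62.2%). Gastric mucous-like barcodes came next, at 54.3 ± 36.7 CPM (SD, n = 6 libraries). Of the hepatocyte-like barcodes, 17 of 25 held Fabp2 in tissue het replicate 1, 12 of 19 in het replicate 2 and 3 of 12 in wt replicate 3, and 0 of these held at least 3 of 8 enterocyte markers, a list chosen after the values had been seen. In the male library without a group, 3 hepatocyte-like barcodes did hold that many, with 102444 CPM of the albumin gene Alb against 19619 CPM in the rest. The list was therefore not shown to tell enterocytes from hepatocytes. In B cell-like barcodes the Fabp2 share was 0.145% (0.0625 to 0.285%). The 10 leading genes of the hepatocyte-like barcodes held 0 of the markers of their gate, Msmp being the first, and included Hamp, Apoa2, Bhmt and Mat1a, which are known hepatocyte transcripts.

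**Figure D1:**
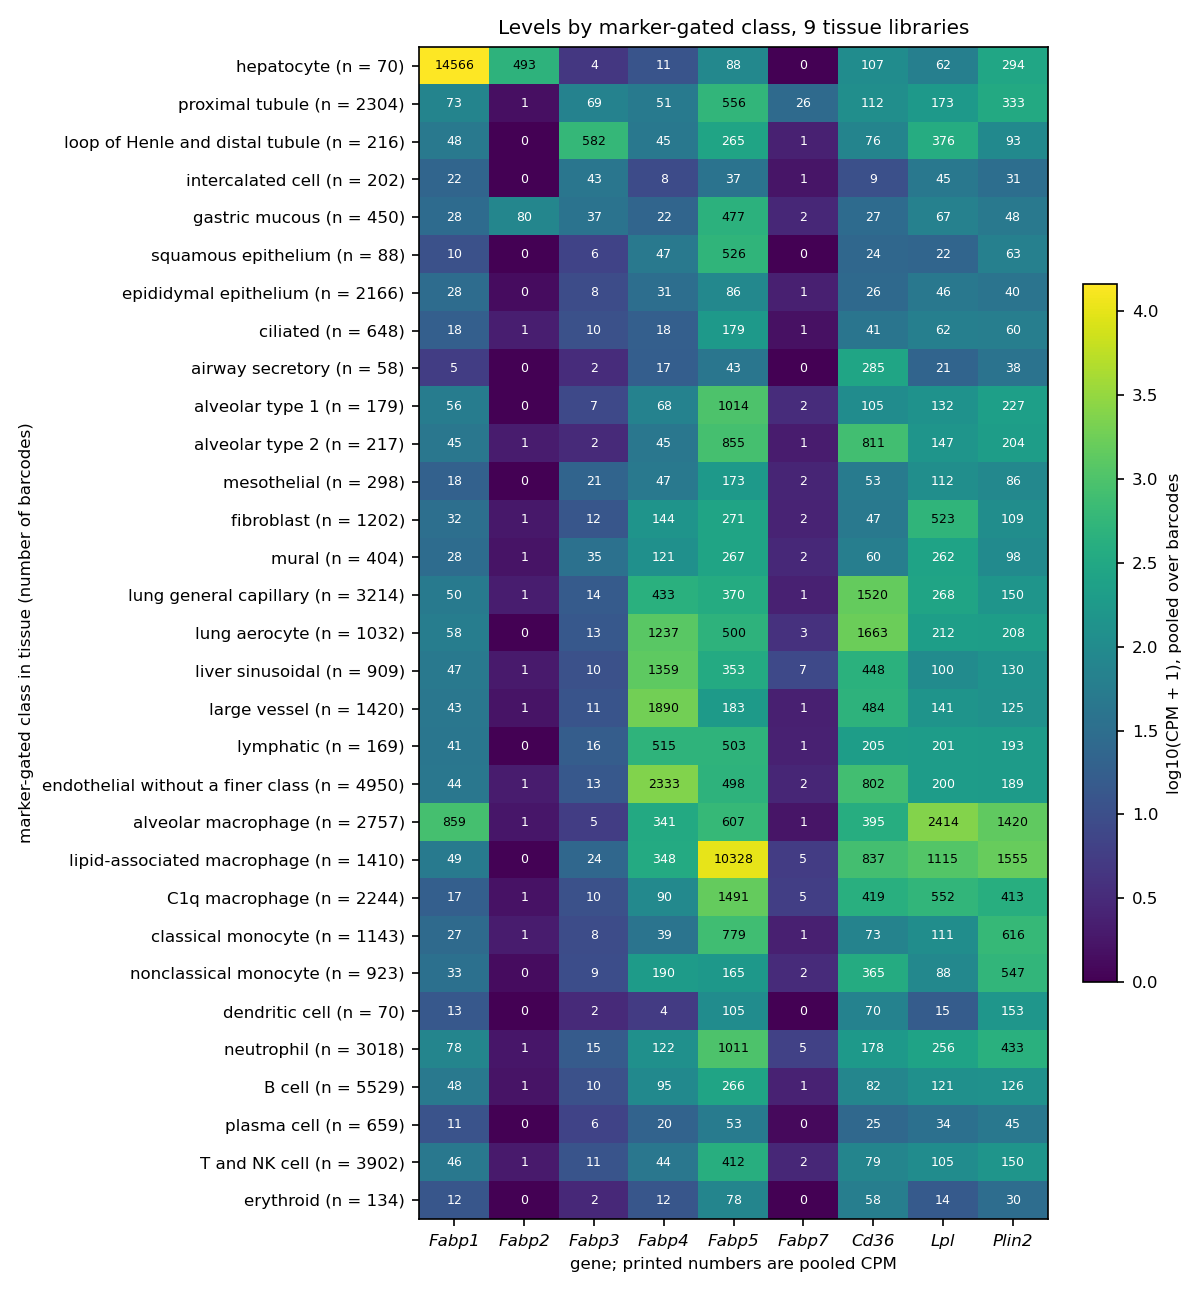
Pooled CPM of each member (columns) in marker-gated classes of the 9 tissue libraries with at least 50 barcodes (rows, with the number of barcodes), colored by log10(CPM + 1). Endothelial-like and myeloid-like barcodes are drawn by finer class, without the 1591 myeloid-like ones that met no finer gate. Fabp1 is brightest in hepatocyte-like, Fabp5 in lipid-associated macrophage-like, Fabp4 in endothelial-like, Cd36 in both lung capillary-like and Lpl in alveolar macrophage-like barcodes.

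Fabp3, the heart and muscle form, was highest in kidney tubule classes among gated barcodes. Most of its signal had no class: of 16346 tissue UMIs, 67.2% lay in barcodes under 200 genes or over 25% mitochondrial UMIs. Another 13.2% lay in other barcodes without a class, so the class levels rest on 3196 UMIs. In the 4 libraries with at least 20 loop of Henle and distal tubule-like barcodes it was 939 CPM in het replicate 1, 372 in null replicate 2, 788 in wt replicate 1 and 373 in wt replicate 2, a mean of 618 ± 290.3 CPM (SD, n = 4 libraries) that became 365 CPM with no limit on mitochondrial UMIs. In proximal tubule-like barcodes the mean was 63.0 ± 34.4 CPM (SD, n = 8 libraries), and all 4 distal values lay above the highest proximal one, 119.9 CPM. The share with a UMI was 63.9% (57.1 to 70.3%) in the distal class and 1.83% (1.49 to 2.22%) in B cell-like barcodes.

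Fabp7, the brain form, was rare over all tissue barcodes. Kupffer-like barcodes, the macrophages of the liver sinusoid, numbered 48 (32 in wt, 9 in het and 7 in null libraries) and held 115 Fabp7 UMIs, 863 CPM, with a UMI in 60.4% (45.3 to 74.2%). No library had 20 of these barcodes, so the level has no spread over libraries. Proximal tubule-like barcodes held 25 ± 7.50 CPM (SD, n = 8 libraries), with a lowest, median and highest library value of 13.4, 24.6 and 36.1 CPM. With no limit on mitochondrial UMIs the proximal tubule mean was 13.1 CPM. Myeloid-like barcodes that met no finer gate held 15.3 ± 17.4 CPM (SD, n = 8 libraries), and B cell-like barcodes 1.5 CPM.

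Fabp4 and Cd36, both known from capillary endothelium, were highest over the broad classes in endothelial-like barcodes and varied between the finer ones. Fabp4 was low in lung general capillary-like barcodes, which line most of the alveolar bed, with library values of 159, 331 and 911 CPM (lowest, median, highest). It was 273 ± 485 CPM (SD, n = 4 libraries) in lymphatic-like, 1229 ± 723 CPM (SD, n = 7 libraries) in liver sinusoidal-like, 1401 ± 1144 CPM (SD, n = 8 libraries) in lung aerocyte-like, 2001 ± 1194 CPM (SD, n = 8 libraries) in large vessel-like and 2427 ± 651 CPM (SD, n = 8 libraries) in endothelial-like barcodes that met no finer gate. Cd36 was high in both lung capillary classes, at 1518 ± 181 CPM (SD, n = 8 libraries) in the general and 1659.8 ± 282 CPM (SD, n = 8 libraries) in the aerocyte-like class, the thin gas-exchange cells. The aerocyte-like class thus had a high mean of both genes, but only 283 of its 1032 barcodes held a Fabp4 UMI. In large vessel-like and liver sinusoidal-like barcodes Cd36 was 568 ± 333 CPM (SD, n = 8 libraries) and 519.9 ± 188 CPM (SD, n = 7 libraries), and the lowest general capillary value, 1206 CPM, met the highest large vessel one, 1207 CPM. The Fabp4 range of the general capillary class overlapped that of each other finer class, and lung aerocyte-like values alone ran from 102 to 3668 CPM. The leading genes of the general capillary-like class included Bpifa1 and Gpx5, markers of other classes, beside Kit and Aplnr.

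**Figure D2:**
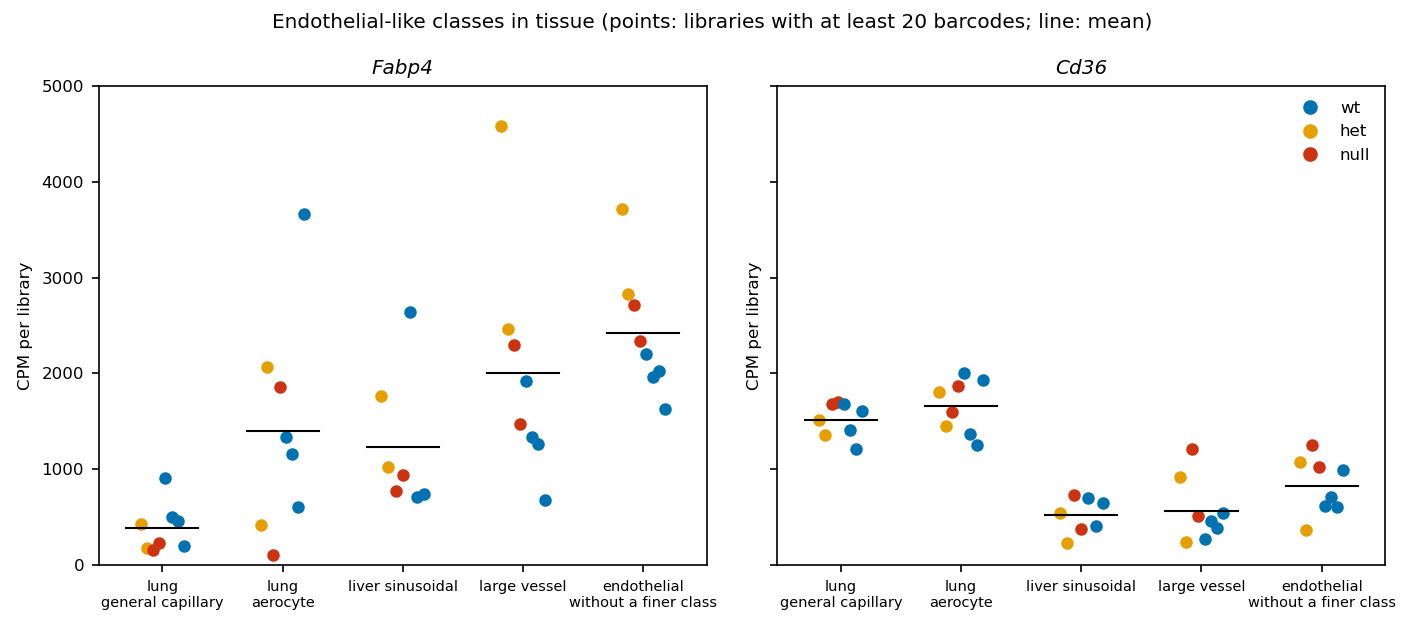
CPM of Fabp4 (left) and Cd36 (right) in 5 endothelial-like classes of tissue, one point per library with at least 20 barcodes of the class, colored by genotype label, with the mean as a line. Cd36 lies between 1206 and 2001 CPM in both lung capillary classes, and of the 5 classes drawn the general capillary has the lowest Fabp4 mean.

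The pair was also read within single barcodes that held at least 1000 UMIs. In lung aerocyte-like barcodes Cd36 was found in 57.0% of those with Fabp4 and 95% of those without (n = 931 barcodes). The same shares were 35.5% and 71.5% in endothelial-like barcodes without a finer class (n = 3959), 79.7% and 93.7% in general capillary-like (n = 2817) and 41.8% and 55.9% in large vessel-like ones (n = 1330). They ran the other way in liver sinusoidal-like barcodes, at 48.9% and 38.1% (n = 792), and in lymphatic-like ones, at 57.1% and 15.9% (n = 154). Barcodes are not replicates, and the organ of each barcode was not used, so these shares carry no test.

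Cd36 was also high outside endothelium. Alveolar type 2-like barcodes, the surfactant-secreting epithelium, held 852 ± 177 CPM (SD, n = 4 libraries), with a UMI in 86.6% (81.4 to 90.9%) of 217 barcodes. Lipid-associated macrophage-like barcodes held 1124 ± 531 CPM (SD, n = 6 libraries). The background share in B cell-like barcodes was 10.2% (9.43 to 11%) for Cd36 and 5.62% (5.03 to 6.27%) for Fabp4.

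Fabp5, the epidermal and macrophage form, depended on 1 library more than any other member in tissue. Over all barcodes the wt tissue libraries held 172, 2806, 128, 95.7 and 45.5 CPM, the het libraries 175 and 232 and the null libraries 286 and 98.5. Wt replicate 2 stood far above all others, and the mean of 449 ± 887 CPM (SD, n = 9) became 154 CPM without it. That library also held 1250 of the 1410 lipid-associated macrophage-like barcodes, cells marked by genes of lipid-laden macrophages, which carried 39.1% of its Fabp5 UMIs. Without them it still held 1899 CPM, and its endothelial-like and B cell-like barcodes held 1079 and 801 CPM, against 74.9 to 138 and 22.9 to 104 CPM in the other tissue libraries with a group. In the 2 libraries without one they held 269.7 and 13.7 CPM (male) and 71.5 and 87.9 CPM (female).

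The lipid-associated macrophage-like class held the highest Fabp5 level. Its library values were 1977 CPM in wt replicate 1, 10886 in wt replicate 2, 1234 in wt replicate 3, 2657 and 7659 in the het libraries and 10882 in null replicate 2. Null replicate 2, with 29 such barcodes, was level with wt replicate 2, which had 1250. The mean of 5882 CPM became 3729.5 CPM without the 5% of gated barcodes with the most UMIs. More even levels were found in alveolar type 2-like barcodes, at 779.8 ± 190.1 CPM (SD, n = 4 libraries), and in alveolar macrophage-like barcodes, at 537 ± 144 CPM (SD, n = 8 libraries).

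**Figure D3:**
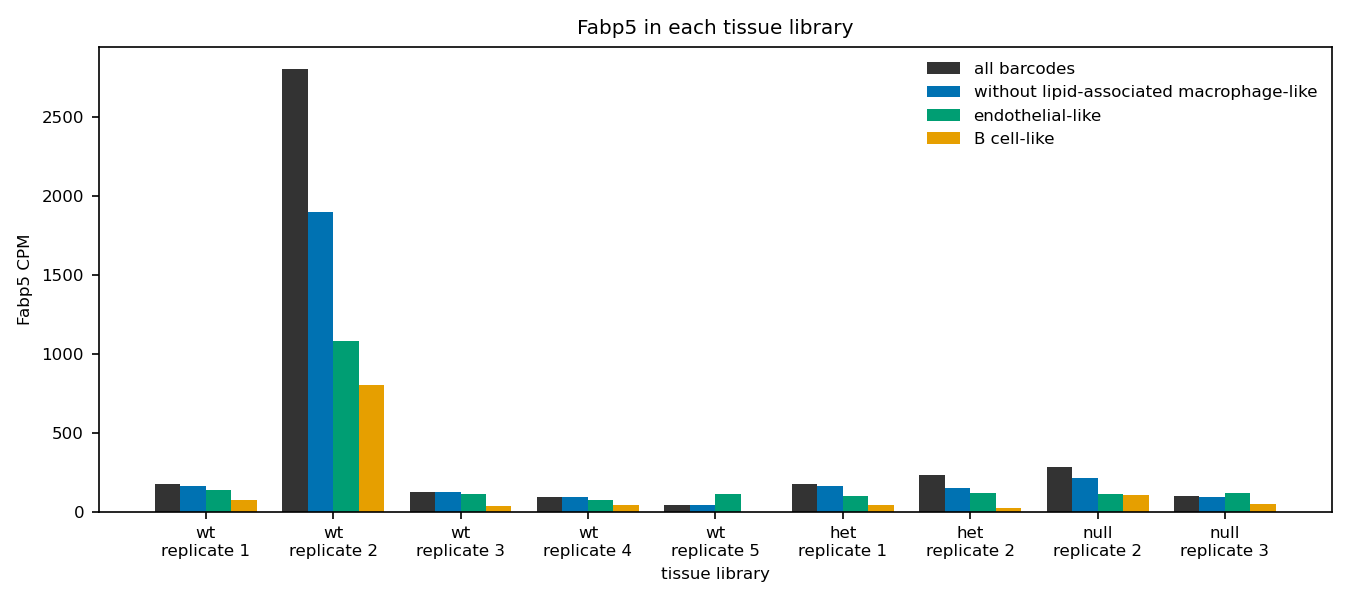
Fabp5 CPM in each of the 9 tissue libraries, over all barcodes, without lipid-associated macrophage-like barcodes, and within endothelial-like and B cell-like barcodes (no B cell-like bar where a library had under 20). Wt replicate 2 is highest on all 4 measures, at 2806, 1899, 1079 and 801 CPM.

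Lpl and Plin2 were highest in macrophage classes of these organs. Lpl in alveolar macrophage-like barcodes had library values of 1899, 2366 and 3382 CPM (lowest, median, highest), a mean of 2436 ± 512 CPM (SD, n = 8 libraries), and 98.7% (98.2 to 99.1%) of barcodes held a UMI, 85.2% when thinned. Lipid-associated macrophage-like barcodes held 2026 ± 673 CPM (SD, n = 6 libraries), and the 48 Kupffer-like barcodes 893 CPM. Outside macrophages Lpl was highest in fibroblast-like barcodes, at 499 ± 284 CPM (SD, n = 8 libraries), and in distal tubule-like ones, at 382 ± 128 CPM (SD, n = 4 libraries). In B cell-like barcodes the Lpl level was 139 ± 51.3 CPM.

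Plin2 followed the same cells, at 1378 ± 185 CPM (SD, n = 8 libraries) in alveolar macrophage-like and 1195 ± 315 CPM (SD, n = 6 libraries) in lipid-associated macrophage-like barcodes, with overlapping ranges. Myeloid-like barcodes that met no finer gate held 957 ± 174 CPM (SD, n = 8 libraries). Classical monocyte-like barcodes held 541 ± 139.9 CPM (SD, n = 8 libraries), nonclassical monocyte-like ones 513 ± 99.8 CPM (SD, n = 8 libraries) and the broad neutrophil-like class 352 ± 81.6 CPM (SD, n = 8 libraries), with C1q macrophage-like barcodes left out of the comparison. The monocyte classes did not differ beyond their spread, and every library value of the neutrophil-like class, up to 514 CPM, lay below the lowest alveolar macrophage value, 1172 CPM. In B cell-like barcodes Plin2 was 110.5 ± 53.9 CPM.

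Genes that work with the members, from a list of 64 other genes of lipid uptake and handling, were placed in the same way. Gpihbp1, which anchors Lpl to capillary endothelium, was highest in liver sinusoidal-like (1320.1 CPM, pooled) and lung general capillary-like barcodes (674 CPM). The Lpl inhibitor Angptl4 was highest in proximal tubule-like barcodes (193 CPM). The droplet protein Cidec was highest in alveolar macrophage-like barcodes (248 CPM), Hilpda, an inhibitor of lipolysis, in lipid-associated macrophage-like ones (1055 CPM) and G0s2, another such inhibitor, in neutrophil-like ones (7286 CPM). The fatty acid transporter Slc27a2 was highest in proximal tubule-like barcodes (1239.6 CPM). Of the 59 listed genes that reached 10 CPM in some class, 12 peaked in hepatocyte-like barcodes and 5 each in alveolar macrophage-like, neutrophil-like and ciliated-like ones. The hepatocyte-like class had only 70 barcodes, and some of its peaks rest on few UMIs, such as 14 for Lipc, 14 for Angptl8 and 18 for Ppara. The share of all genes that peak there is not given, so the 12 are not read as an excess.

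In the circulating cells, Fabp1, Fabp2 and Fabp3 were at or near 0, and the mean levels of the other members ran from 24.0 CPM for Fabp7 to 251 CPM for Plin2. Over all barcodes Fabp1 had 5 UMIs in the 10 ntCZC libraries together, found in 2 of them, against 54356 in the 9 tissue libraries, and Fabp2 had 1 UMI against 989. The lowest, median and highest Fabp3 levels were 0, 2.05 and 7.13 CPM in ntCZC and 18.7, 31.3 and 53.6 CPM in tissue. For Lpl they were 0, 47.1 and 96.9 CPM and 201, 304 and 463 CPM. Fabp1, Fabp3 and Lpl were the 3 of 8 fitted members whose libraries did not overlap between the 2 kinds, where 18.1% of all 11905 fitted genes did not. Fabp1 and Fabp3 passed the filter on low counts through tissue. Only a lower position in ntCZC was possible for them, so their place in this count was fixed in advance. In counts summed per library, fewer cells of a type and less RNA per cell cannot be told apart.

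Cd36 and Fabp4 lay closer, with lowest, median and highest levels of 18.6, 121 and 162 CPM against 128, 208 and 361 CPM for Cd36 and of 0, 129.6 and 283 CPM against 111, 217 and 316 CPM for Fabp4. Plin2 was 251 ± 111 CPM in ntCZC and 230.5 ± 136 CPM in tissue (SD, n = 10 and 9), and Fabp5 was 66.9 ± 31.0 against 449 ± 887 CPM. Fabp7 was the only member with a clearly higher mean in ntCZC, 24.0 ± 24.3 against 5.31 ± 2.87 CPM, and its ranges overlapped. Fitted log2 differences of ntCZC minus tissue, given with their SE and no test, were -8.27 ± 0.61 for Fabp1, -3.86 ± 0.39 for Fabp3, -2.97 ± 0.39 for Lpl, -2.31 ± 0.73 for Fabp5, -0.96 ± 0.19 for Cd36, -0.79 ± 0.35 for Fabp4, 0.14 ± 0.30 for Plin2 and 2.06 ± 0.68 for Fabp7. The Fabp1 value rests on 5 UMIs in ntCZC, and its pooled tissue level was 313-fold that of ntCZC (counting interval 134 to 964). Fabp2 did not pass the filter on low counts. Over barcodes of 200 or more genes with no more than 25% of UMIs from mitochondrial genes, an alternative chosen after seeing the data, tissue means were 374 CPM for Plin2, 528 CPM for Lpl, 179.9 CPM for Fabp1 and 20.2 CPM for Fabp3, and the ntCZC mean of Plin2, 293 CPM, was then below that of tissue. In the PBMC library, most of whose barcodes were lymphocyte-like, every member was at or below 20.4 CPM, the value of Plin2.

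**Figure D4:**
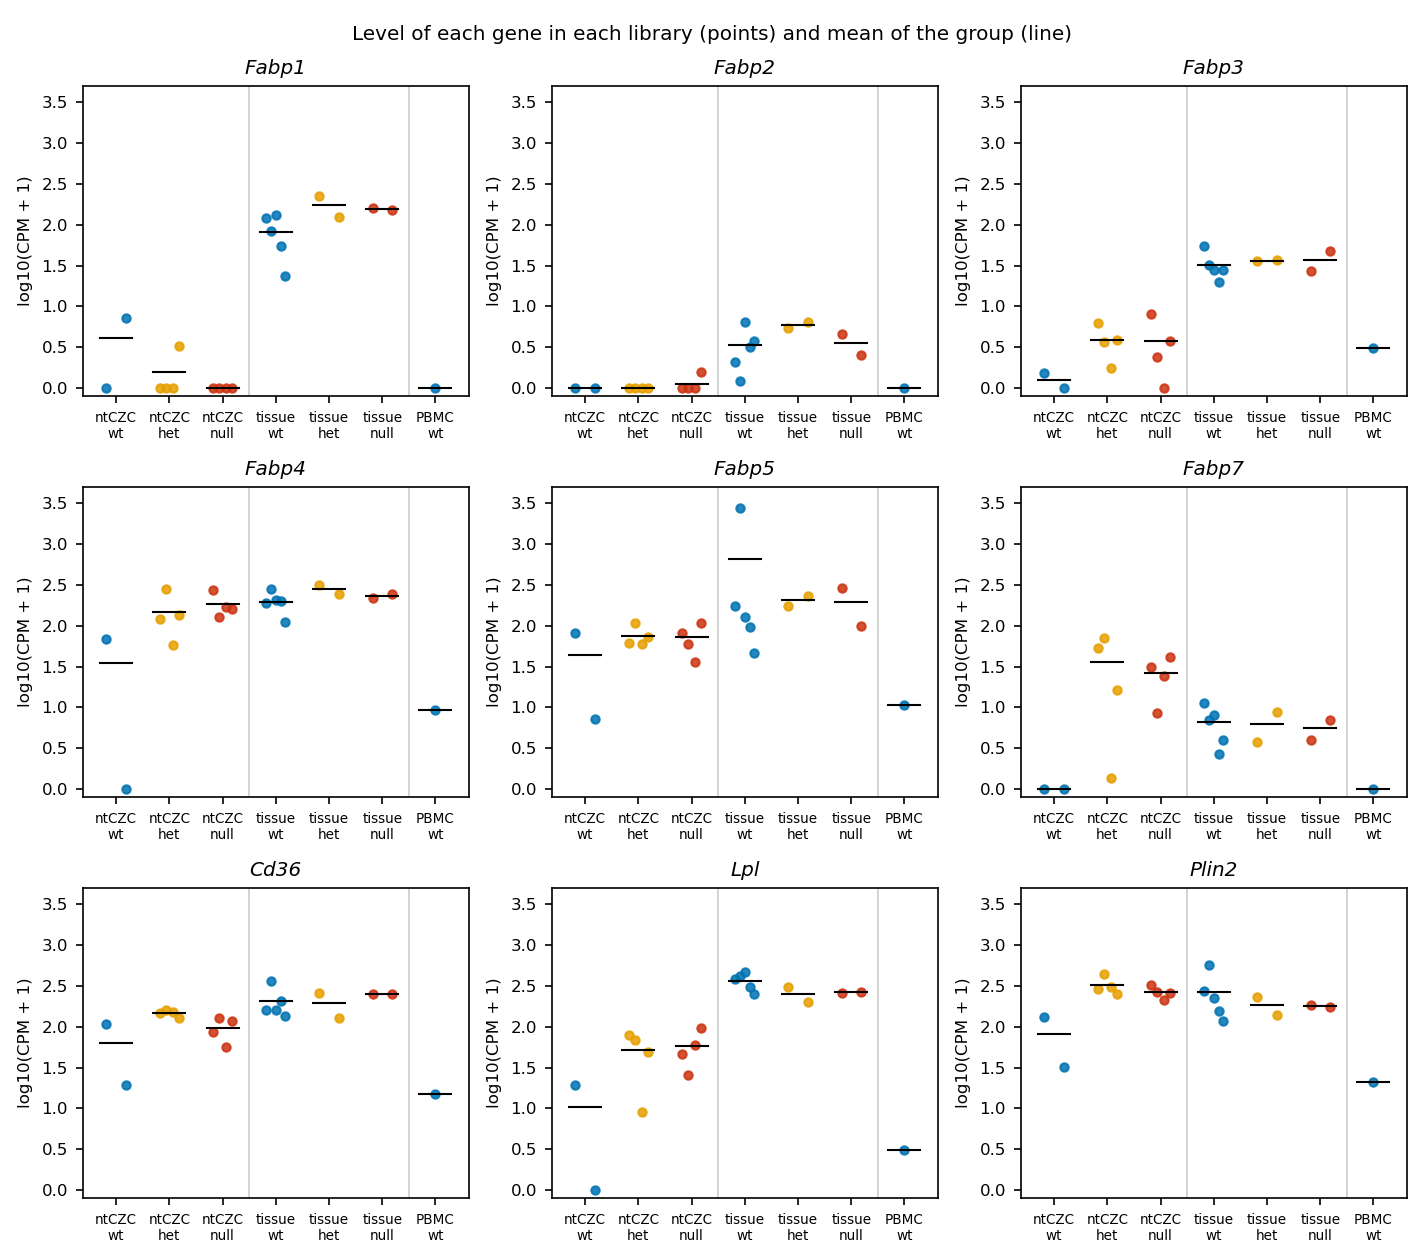
Level of each member as log10(CPM + 1) in every library with a genotype label, grouped by kind and genotype and colored by genotype, with the group mean as a line. Fabp1, Fabp3 and Lpl separate tissue from ntCZC, and Fabp7 is 0 in both wt ntCZC libraries.

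The other genes of the pathway were tested between ntCZC and tissue with edgeR's quasi-likelihood test on counts summed per library. Of 44 listed genes that passed the filter, 39 were called, 10 higher and 29 lower in ntCZC, where 66% of all genes were called, 27.5% higher and 38.5% lower. The median log2 difference was -0.89 for the list and -0.13 over all genes. With RLE scaling or DESeq2 the split was 8 higher and 31 lower. Fatty acid transport and activation had 1 gene higher and 6 lower of 7 tested, lipid droplet and lipolysis 2 higher and 8 lower of 11, and mitochondrial fatty acid oxidation 0 higher and 5 lower of 7. Lipoprotein lipases, anchors and receptors had 5 higher and 3 lower of 8. The counts for the list and its groups include genes that passed the filter through tissue alone, such as Slc27a2, Ppara and Cideb. For such genes only a lower call was possible.

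The genes that fell most were Slc27a2 (1 UMI in all ntCZC libraries, 154 ± 79.8 CPM in tissue), Ppara, the nuclear receptor of hepatic fatty acid oxidation (0 UMIs against 8.50 ± 4.45 CPM), and Cideb, a droplet protein of hepatocytes (1 UMI against 18.3 ± 10.5 CPM). Pooled tissue levels were 2429-fold (counting interval 436 to 95939) those of ntCZC for Slc27a2 and 284-fold (50.9 to 11205) for Cideb, and Ppara was at least 39.5-fold lower in ntCZC at a floor of 3 UMIs over the group. These 3 passed the filter on low counts through tissue alone, so their p-values are not given. The genes that rose most were the scavenger receptor Msr1 (log2 difference 1.93 ± 0.49, SE, adjusted p = 0.00185), the lipoprotein receptor Lrp1 (1.68 ± 0.27, 1.54e-05) and Cebpa, a transcription factor of adipocytes and myeloid cells (1.32 ± 0.22, 2.51e-05). The lipid regulator Pparg, named only after its values were seen, rose by 1.04 on the log2 scale (adjusted p = 0.00165 in edgeR). Gpihbp1 was 2.52 ± 7.97 CPM in ntCZC, where a single library held all of it, and 62.4 ± 30.2 CPM in tissue. ntCZC held 1 endothelial-like and 0 hepatocyte-like or proximal tubule-like barcodes and tissue 11694, 70 and 2304, and the part of these shares in the list's changes was not tested.

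Nalcn genotype in ntCZC was compared over 2 wt, 4 het and 4 null libraries. Both wt libraries were male, while het replicate 3 and null replicates 1, 3 and 4 were female. Sex is therefore not separated from genotype in the levels below. Plin2 was 129.5 and 31.0 CPM in the wt libraries, 288, 444, 254 and 304 in het and 321, 267, 209.8 and 259 in null, so both wt values lay below all others. Fabp7 was 0 in both wt libraries, 52.5, 70.0, 15.4 and 0.385 CPM in het and 30.0, 7.51, 23.6 and 40.7 in null. At the wt depths a count of 0 allows up to 1.59 CPM in replicate 1 and 18.6 CPM in replicate 3, so replicate 3 could not have shown the lower het and null values, and neither could have shown the lowest het one, a single UMI. Fabp4 was 68.5 and 0 CPM in wt, 119.7, 283, 133 and 56.5 in the het and 274, 126, 171 and 159 in the null libraries, with 1 het value below the higher wt one. Lpl was 18.6 and 0 CPM in wt, 78.8, 67.3, 48.5 and 8.08 in the het and 45.7, 24.4, 59.1 and 96.9 in the null libraries. Cd36 was 107 and 18.6 CPM in wt, 146, 162, 126 and 151 in the het and 86.3, 126, 56.1 and 116 in the null libraries, so all het values lay above wt, and the lowest het value only just above the highest null one. Fabp5 showed no such order, at 80.7 and 6.19 CPM in wt, 60.9, 108, 71.3 and 58.4 in the het and 81.3, 58.7, 35.5 and 109 in the null libraries.

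Of 6 fitted members, 4 (Fabp4, Fabp7, Lpl and Plin2) had all null above all wt libraries, where 8.49% of all genes did not overlap in either direction, and 3 (Fabp7, Cd36 and Plin2) had all het above all wt, where 11.9% did not, the Fabp7 order there resting on that single UMI. These comparisons share the wt libraries, both of them male, and are not adjusted for sex. Fabp7, at 0 in wt, passed the filter on low counts through het and null. Only a higher position there was possible for it, so its place in both counts was fixed in advance. Its lowest null value, 7.51 CPM, also lay below what a count of 0 allows in wt replicate 3. Between null and het, Cd36 was the 1 member of 6 that did not overlap, lower in null, where 5.68% of genes did not. With the shallow wt replicate 3 left out, wt had 1 library, whose values still lay below all null values for the same 4 members and below all het values for Cd36 and Plin2, while its 0 for Fabp7 cannot be placed below that UMI. The cells also differed: peritoneal macrophage-like barcodes numbered 0 in wt, 36 in het and 46 in null, and neutrophil-like barcodes 103, 1 and 7. Peritoneal macrophage-like barcodes of ntCZC held 719.6 CPM of Fabp4 and 103 CPM of Fabp7, against 145 and 1.07 CPM in nonclassical monocyte-like ones. The part of these shares in the members' levels was not tested.

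Nonclassical monocyte-like barcodes, patrolling blood monocytes, were the largest ntCZC class and allowed a comparison of like cells. Plin2 in them was 170.3 CPM in wt replicate 1, 437, 492 and 418 in het and 627, 330.0 and 407 in null. The single wt library was again lowest, with no second wt library to give a spread. In tissue, the wt values of Plin2 in the same class were 531, 584, 364 and 558 CPM, overlapping the het and null ones of 400.5 to 665 CPM. A Plin2 UMI was found in 42.5% of the wt ntCZC barcodes and in 74.4 to 97.1% of those of the other libraries. Fabp4 in wt replicate 1, 170.3 CPM, and Cd36, 261 CPM, lay within the ranges of the other ntCZC libraries, 92.0 to 278 and 152 to 279.9 CPM.

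**Figure D5:**
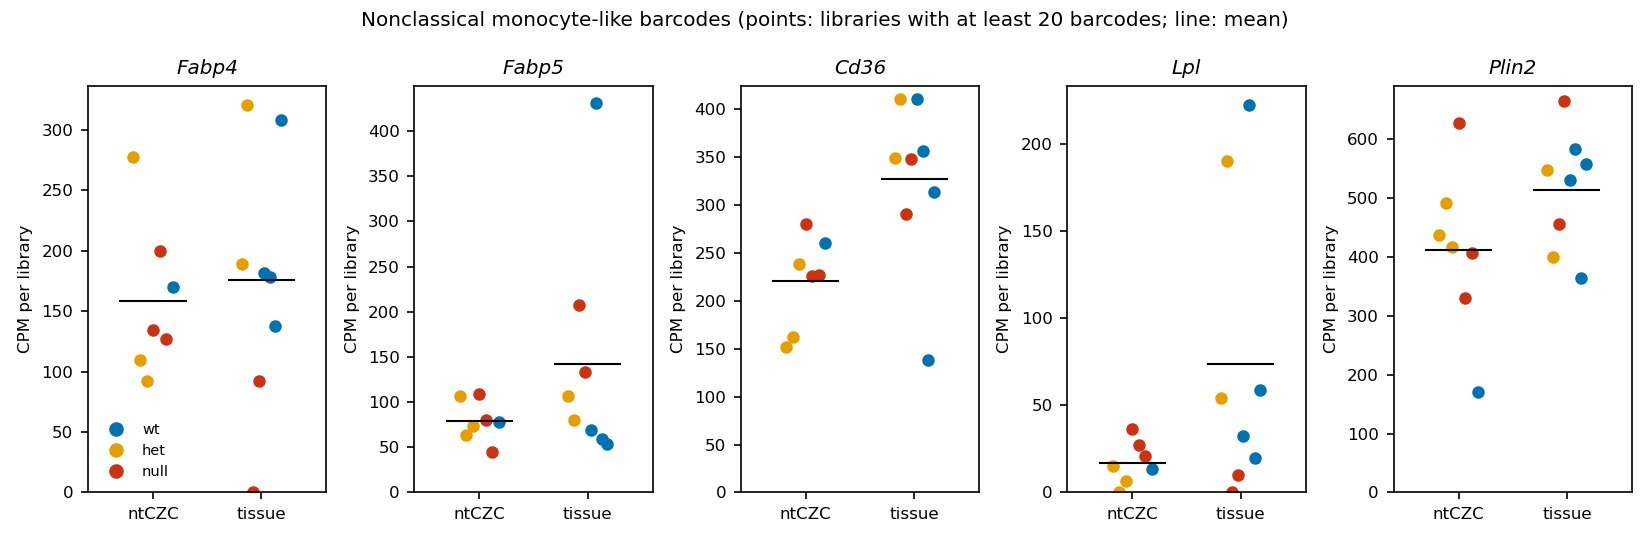
CPM of 5 members in nonclassical monocyte-like barcodes of ntCZC and tissue, one point per library with at least 20 such barcodes, colored by genotype label, with the mean as a line. The lowest Plin2 point of ntCZC, 170.3 CPM, is the single wt library.

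Against tissue, the same class in ntCZC held 221 ± 47.7 CPM of Cd36 (n = 7) where tissue held 327 ± 87.1 (n = 8). For Fabp4 the values were 159 ± 63.7 and 176 ± 106 CPM, and for Lpl 17.1 ± 12.3 and 73.5 ± 84.8 CPM, with overlapping ranges for all 3. The tissue Lpl mean lay below the level in B cell-like barcodes given above, so it cannot be told from background. In classical monocyte-like barcodes of ntCZC Cd36 was 3.20 CPM (pooled over 208 barcodes) and 231 CPM in the nonclassical class (980 barcodes).

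In tissue, 8 of 9 members overlapped between null and wt libraries and all 9 between het and wt. Both het libraries were male, while wt replicates 4 and 5 and null replicate 3 were labelled female. Sex is therefore not separated from genotype in these orders. Cd36 was 159, 361, 159, 208 and 136 CPM in wt, 258 and 128 in the het and 251 and 249 in the null libraries, with overlap between all groups. Fabp4 was 189, 281, 205, 201 and 111 CPM in wt, 316 and 241 in the het and 217 and 242 in the null libraries. Fabp1 was 119, 83.9, 129, 53.6 and 22.9 CPM in wt and 159 and 151 in null, the only member of 9 whose null and wt libraries did not overlap, where 13.6% of all genes did not. The het values of Fabp1, 225 and 123 CPM, overlapped wt, and no member stood apart between het and wt (11.8% of genes). In endothelial-like barcodes Fabp4 was 1779.8, 1301, 1168, 969 and 405 CPM in wt, 2035 and 1819 in the het and 1575 and 1335 in the null libraries, with het above wt. Cd36 there was 918, 942, 697, 1142 and 561 CPM in wt, 1256 and 539 in the het and 1352 and 1170.1 in the null libraries, with null above wt. Each was the 1 of 8 members apart in its comparison, where 11.9% of genes were in both. In myeloid-like barcodes no member stood apart (9.61% of genes for null and 8.71% for het against wt). The cells differed here too. Epididymal epithelium-like barcodes numbered 79 in wt, 247 in het and 1840 in null, and lipid-associated macrophage-like ones 1317, 55 and 38. The part of these shares in the members' levels over all barcodes was not tested.

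None of the 64 listed genes was called for genotype: 0 of 34 tested in ntCZC for null or het against wt and for null against het, and in tissue 0 of 62 over all barcodes, 0 of 46 in endothelial-like and 0 of 43 in myeloid-like barcodes. Over all genes the edgeR test called 0%, 0.107% and 0% in the ntCZC comparisons in that order, 0.0112% and 0% in tissue for null and het against wt, and 0% in each of the endothelial-like and myeloid-like comparisons. At an unadjusted p under 0.05 the counts over all genes were 360, 741 and 686 in ntCZC, 1621 and 1367 in tissue, 774 and 1074 in endothelial-like and 484 and 376 in myeloid-like barcodes. DESeq2 called 2 listed genes, Lipg among them, for each of null and het against wt in tissue, and no listed gene in the other genotype comparisons.

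Sex was not used to list the members, so they were tested for it. In male pools the epididymis and in female pools the uterus was included, so sex and organ cannot be told apart in tissue. No member was called in edgeR's quasi-likelihood test, 0 of 6 tested in ntCZC, 0 of 9 in tissue over all barcodes and 0 of 8 each in endothelial-like, myeloid-like and proximal tubule-like barcodes, where 0.032%, 0.0112%, 0.0464%, 0.0276% and 0.116% of all genes were called. No other listed gene was called either. No member stood apart between the sexes in ntCZC, endothelial-like or proximal tubule-like barcodes, where 0.597%, 1.64% and 11.2% of genes did. At an unadjusted p under 0.05 the test gave 1049, 1268, 417, 744 and 638 genes in that order.

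The members nearest to a call had higher means in males, but the difference of Fabp5 turned with the replicate number as a block, to -2.34 over all tissue barcodes and -1.16 in myeloid-like ones. In that block wt replicates 4 and 5, both female, were alone under their numbers. Sex was then read only from wt replicate 3 against null replicate 3. The null term rested on number 2, which includes the high wt replicate 2, so the block cannot decide the sign. Over all tissue barcodes Fabp1 had a log2 difference of 0.98 ± 0.35 (SE, adjusted p = 0.632), 140 ± 48.1 CPM in 6 male and 75.9 ± 67.1 CPM in 3 female libraries. Fabp5 had 3.07 ± 1.23 (adjusted p = 0.632), with all 6 male above all 3 female libraries, where 1.69% of genes did not overlap, and was 1.12 without wt replicate 2. Fabp5 in myeloid-like barcodes (3.21 ± 1.10, adjusted p = 0.655) also had no overlap, where 4.23% of genes had none, and was 1.48 without that library. Without the filter on low counts it was called, at an adjusted p of 0.0394 in edgeR. Fabp4 in endothelial-like barcodes was 1611 ± 330 CPM in males and 903 ± 468 CPM in females (0.75 ± 0.31, adjusted p = 1.000). That difference was 0.11 with the replicate block, 0.32 with no limit on mitochondrial UMIs and 0.40 without wt replicate 5, and that of Fabp1 was 0.62 without the same library. Without tissue null replicate 3, which held Y-linked transcripts against its label, the 4 log2 differences (Fabp1, Fabp5 over all and over myeloid-like barcodes, Fabp4) were 1.39, 3.7, 3.55 and 1.00, and none was called.

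The genes whose pattern over 30 tissue classes was most like each member were ranked by Pearson correlation of log2(CPM + 1), over 14312 genes and with no test, since classes share libraries and depth. The closest genes, with r in parentheses, were Car5a (0.910) and Wfdc21 (0.842) for Fabp1, and Ugt2b35 (0.954), Cyp2c55 (0.951) and Hsd17b6 (0.927) for Fabp2. For Fabp3 they were Glod5 (0.827), Oxct1 (0.823) and Atp5b (0.819), Oxct1 being an enzyme of ketone use and Atp5b a subunit of the mitochondrial ATP synthase. Fabp4 was closest to Flt1 (0.879), Sgk1 (0.860) and Kctd12b (0.856), Flt1 being a receptor of vascular endothelial growth factor. Fabp5 was closest to Hk3 (0.839), Il1rn (0.808) and Ctsb (0.808), which are a hexokinase of myeloid cells, the interleukin-1 receptor antagonist and a lysosomal protease. For Fabp7 they were Gatm (0.826), Gm10804 (0.824) and Cyp2d12 (0.784), with Kupffer-like barcodes too few to enter. Cd36 had the lowest values, Mb21d1 (0.706), Acvrl1 (0.705) and Batf2 (0.705). Lpl was closest to Mitf (0.853), Ctsd (0.838) and Dpp7 (0.835), of which Ctsd and Dpp7 are lysosomal proteases, and Plin2 to Gpr137b (0.917), Lipa (0.895) and Ftl1-ps1 (0.895), of which Lipa is the lysosomal lipase.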

How the data were processed

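Libraries were made by droplet-based 3′ single-cell RNA sequencing, and per the labels reads were processed by the authors with Cell Ranger 2.1.1 on mm10, while the matrix headers name 3.0.2. Seurat is also named. The deposited values are raw UMI counts per gene and barcode, 1 matrix per library, as the authors filtered barcodes (22 libraries, 179929 barcodes). Hashtags were not used here, so the organ of a barcode was not known, and no test used the 2 libraries without a group.

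The 9 members and all lists were chosen with earlier results of these data known. Counts were summed over all barcodes per library, or per class where a library had at least 20 barcodes of it, and given as counts per 1000000 UMIs (CPM). Barcodes of 200 or more genes with no more than 25% of UMIs from mitochondrial genes entered 1 of 25 broad classes with at least 3 of its 8 markers and 2 more than any other class, and 1 of 13 finer endothelial or myeloid classes with at least 2 of 6 markers and more than any other. No doublet caller was run, and barcodes with conflicting markers were left out. The 10 leading genes of C1q macrophage-like barcodes held 0 of their own markers and 1 of another class (Dnase1l3), and the class was not compared. Hepatocyte-like barcodes, also with 0 of their own, and alveolar macrophage-like ones, with Car4 and Krt19 of other classes, were kept. The C1q class held 11955 Fabp5 UMIs in tissue, against 11097 in alveolar macrophage-like barcodes. Shares of barcodes with a UMI have exact 95% Clopper-Pearson intervals, and thinned shares are expectations at 1000 UMIs.

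Groups were compared with edgeR 4.0.16 (R 4.3.3) by quasi-likelihood tests on summed counts, with TMM scaling, filterByExpr and Benjamini-Hochberg adjustment over all genes at a threshold of 0.05, with sex as a covariate (genotype in the sex comparison), and the fit was tested on simulated data first. SE is the log2 difference divided by the square root of F. Only the sex comparison was used to test members. All 9 members are named in each comparison they bear on, and of the 64 listed genes the 3 with the largest change in each direction among those called, beside up to 3 genes most like each member over classes. Pparg, Gpihbp1 and the partners given by class were named after their values were seen. Some genes that the rule takes in are counted but not reported here by name. Alternatives were RLE scaling, no filter, DESeq2 1.42.0, kept barcodes only, other gates, a replicate block and leaving out each library. Counts of libraries deposited under the same group differed by more than sampling noise (chi-square per degree of freedom at least 4.75 over 25 pairs). Sequences came from RefSeq (GRCm38.p6) and positions from GENCODE vM21.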

Additional observations from a re-analysis of the deposited data

Results flagged for a closer look

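Of 38 groups of 4 to 10 libraries checked for a library far from the others, 3 held one, and chance gives about 5% of groups. That rate does not apply to the Fabp1 and Fabp2 flags below. All other libraries of their groups were at 0, where any UMI in 1 library is flagged. Fabp1 was 2.28 CPM, 4 UMIs, in ntCZC het replicate 3 and 0 in the other het libraries, where a count of 0 allows up to 3.15 CPM in replicate 1, 8.08 in replicate 2 and 1.15 in replicate 4, so a difference from replicates 1 and 2 was not detectable at this depth. Fabp2 was 0.557 CPM, a single UMI, in ntCZC null replicate 4 and 0 in the other null libraries, below what a count of 0 allows in each of them. Fabp5 was 2806 CPM in tissue wt replicate 2 against 45.5 to 172 CPM in the other wt libraries, as described with its lipid-associated macrophage-like barcodes above.

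The 2 tissue libraries whose genotype labels conflict entered no comparison. In the female one Fabp1 was 265.8 CPM, Cd36 474.7 CPM and Lpl 596 CPM, above the highest of the 9 grouped tissue libraries (224.8, 361 and 463 CPM). In the male one Fabp4 was 337 CPM and Fabp7 10.6 CPM, above highest values of 316 and 10.4 CPM.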

How the results depend on the processing

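Of the listed genes, 39 were called between ntCZC and tissue, 35 to 49 under the alternatives and 37 to 43 with each library left out. The genotype comparisons called 0 listed genes and the sex comparisons 0 members and listed genes, and these alternatives called some. Without the filter on low counts, Hilpda was called for sex in ntCZC (1 gene), 1 listed gene for null against wt in tissue, Dgat2 for het against wt in endothelial-like barcodes (1), Fabp5 for sex in myeloid-like (1; log2 difference 3.26) and Angptl4 and Fabp5 for sex in proximal tubule-like barcodes (2). DESeq2 called Hilpda for sex in ntCZC (1), 2 listed genes, Lipg among them, for each of null and het against wt in tissue and Angptl8 for sex in tissue (1). Leaving out a library gave 0 to 1 for null against wt in tissue, the 1 being without wt replicate 1. Over barcodes of 200 or more genes with no more than 25% of UMIs from mitochondrial genes, chosen after seeing the data, tissue means were 179.9 CPM for Fabp1, 20.2 for Fabp3, 324 for Fabp4, 309.7 for Cd36, 528 for Lpl and 374 for Plin2, and that of Fabp5 was 680.5 against 449 over all barcodes, within its spread. With no limit on mitochondrial UMIs, Fabp7 in proximal tubule-like barcodes was 13.1 CPM and Fabp3 in distal tubule-like ones 365 CPM. The cause was not tested for any of these. Of the other alternatives, 612 for counts and means stayed near the main value, for means within the SD over libraries. Leaving out 1 library cannot move a mean beyond that SD, so for those settings the outcome was fixed in advance. For single genes, 208 alternatives kept the sign and the side of the threshold. Over all genes DESeq2 and the fit without the filter called more: for null against wt in tissue 345 and 17 against 2, for het against wt in ntCZC 101 and 92 against 10, and for sex in ntCZC 103 and 180 against 3.

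Same-numbered libraries were not treated as pairs. Within a kind, 1 of 13 same-number correlations of deviations from group means was over 0.1 (-0.42 to 0.24). In a group of 2 libraries these deviations are exact opposites, so the correlations are not independent and cannot exclude that libraries share a mouse. Between ntCZC and tissue, 0 of the 4 pairs that share genotype, number, sex and age were over 0.1 (0.0091 to 0.085), and with these pairs as a block, chosen after seeing the data, 44 listed genes were called, 7 higher and 37 lower in ntCZC. With the replicate number as a block, the sex difference of Fabp5 turned to -2.34 over all tissue barcodes and -1.16 in myeloid-like barcodes, and no call on members or listed genes changed. That block cannot decide the sign, for the reason given with the sex comparison above. The sex differences of members with an unadjusted p of 0.05 or more (35 tests) are not given singly, a choice made after 61 of their 508 alternative values had been seen to change sign, with 1 past the threshold. A male and female comparison in hepatocyte-like barcodes could not be run, since no sex had enough libraries with 20 of them. Depth limits ntCZC wt replicate 3 most, where 3 UMIs are 18.6 CPM.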

Other observations

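Peritoneal macrophage-like barcodes, a resident macrophage class rarely met in these organs (14 in tissue), reached 20 in 2 ntCZC libraries, het replicate 3 (25 barcodes) and null replicate 1 (26), both female. Plin2 was 681 and 569 CPM in them, Fabp5 280.2 and 199 CPM, and Fabp7 60.3 and 85.8 CPM. A Fabp7 UMI was found in 28.0 and 61.5% of these barcodes.

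In the male library without a group, 44 barcodes were hepatocyte-like. Those with fewer than 3 enterocyte markers held 1539 CPM of Fabp1 and 78.7 CPM of Fabp2, below the 3 grouped libraries with at least 5 such barcodes, which held 7307 to 21415 CPM of Fabp1 and 227 to 664 CPM of Fabp2. Alb, the serum albumin of hepatocytes, was 19619 CPM there and 5759 to 26938 CPM in the grouped libraries. The 3 barcodes of the male library with at least 3 enterocyte markers held 3245 CPM of Fabp1, 132 CPM of Fabp2 and 102444 CPM of Alb.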
